A study of Mus musculus with 15 samples.

Results

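Glucocorticoids are steroid hormones of the adrenal cortex, corticosterone in the mouse, whose level follows the time of day and rises with stress. They act through the glucocorticoid receptor, a transcription factor that is held in the cytoplasm by chaperones, moves to the nucleus once it binds the hormone, and raises or lowers the transcription of target genes. In the heart the receptor is found in muscle cells and in other cell types, and its targets there take part in fuel use, ion transport and protein turnover. The genes described are the receptor gene Nr3c1 and 9 genes that are known to respond to glucocorticoids: Fkbp5, Tsc22d3, Sgk1, Zbtb16, Cdkn1a, Klf9, Klf15, Mt1 and Mt2. They were taken by gene symbol, with every probe set that the platform annotation gives to one of them alone. The 10 genes had 30 probe sets, out of 34940 probe sets that name a single gene and 18190 genes in all.

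RNA from a piece of the heart apex was measured on 15 whole-genome Affymetrix arrays, 5 for each of 3 kinds of male mouse. The groups were B6C3F1 (the first-generation cross of the inbred strains), C3H (C3H/HeJ) and C57Bl/6 (C57BL/6J). The mice of all 3 groups were 9 to 10 weeks old, were housed one to a cage under a 12-hour light cycle, and had a telemetry transmitter placed in the abdomen under tribromoethanol at 7 weeks. Apart from this surgery and its anaesthetic the mice are labelled as untreated, with no hormone given, and all were killed with CO2. The comparisons therefore ask how these genes differ between strains whose mice all had the surgery. No array shows a response to a given glucocorticoid. Plasma corticosterone and the hour at which each heart was taken are not given in the sources used here. The apex is whole tissue, so that fewer cells of a type and less RNA per cell cannot be told apart.

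The deposited signals are log2 values that hold 1 value per probe set, and all levels below are log2(signal + 16). A gene was represented by its brightest probe set. Probe sets with a mean under 5.74, the 40th percentile, counted as dim and were left out, which kept 13111 genes. All 10 genes and 26 of their 30 probe sets were above that limit. The dim ones were single probe sets of Fkbp5, Klf9, Mt1 and Nr3c1. The 2% trimmed mean signal was about 500.26 to 500.28 on every array, and no arrays held identical values. Cardiomyocyte genes were bright in all groups, with 7 of 7 markers above the limit. None of the 7 passed between C3H and C57Bl/6, beside 15.7% of all genes tested.

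The promoters of these genes show which of the textbook response elements their starts carry. Windows of 300 bases, most of them before the start of the gene, were taken from RefSeq (build GRCm38.p6). Windows and arrays are linked by gene symbol only, since no build is given with the arrays. Of the 10 genes, 8 had 16 such windows, and Zbtb16 and Nr3c1 had none in the table used. The full palindromic glucocorticoid response element (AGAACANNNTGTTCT) was found in 1 of the 16 windows, the fifth of the 6 windows of Sgk1. Over all 32841 windows of the table it was found in 3, or 0.00913%. The metal response element, TGCACNC or TGCGCNC, was found once in a window of Sgk1, once in Klf15, 3 times in Mt1 and 4 times in Mt2, and in 25.7% of all windows. The E-box CACGTG, which clock factors can bind, was found once in the Fkbp5 window, once in a window of Sgk1 and 3 times in Klf15, and in 7.15% of all windows. The D-box (TTATGTAA or TTACATAA) was in none of the 16 windows and in 0.938% of all windows. The GC box GGGCGG was in 8 of the 16 windows and in 35.7% of all windows. The windows shown are the one with the full palindrome and those with several metal response elements or several E-boxes, and the capitals mark the palindrome in Sgk1 at chr10:21993640-21993939 (plus strand), the metal response elements in Mt1 at chr8:94178839-94179138 and Mt2 at chr8:94172368-94172667 (both plus strand), and the E-boxes in Klf15 at chr6:90462326-90462625 (plus strand).
Sgk1: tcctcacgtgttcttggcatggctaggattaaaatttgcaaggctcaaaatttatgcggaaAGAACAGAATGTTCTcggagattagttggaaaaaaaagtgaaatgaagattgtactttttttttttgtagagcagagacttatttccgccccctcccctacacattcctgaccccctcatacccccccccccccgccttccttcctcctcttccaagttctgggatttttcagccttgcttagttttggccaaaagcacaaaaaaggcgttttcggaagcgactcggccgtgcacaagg
Mt1: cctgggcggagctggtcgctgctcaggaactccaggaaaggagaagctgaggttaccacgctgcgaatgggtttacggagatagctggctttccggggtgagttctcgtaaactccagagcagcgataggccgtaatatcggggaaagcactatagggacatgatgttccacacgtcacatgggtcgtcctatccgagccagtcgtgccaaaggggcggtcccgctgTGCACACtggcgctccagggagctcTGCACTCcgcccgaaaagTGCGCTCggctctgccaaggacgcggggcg
Mt2: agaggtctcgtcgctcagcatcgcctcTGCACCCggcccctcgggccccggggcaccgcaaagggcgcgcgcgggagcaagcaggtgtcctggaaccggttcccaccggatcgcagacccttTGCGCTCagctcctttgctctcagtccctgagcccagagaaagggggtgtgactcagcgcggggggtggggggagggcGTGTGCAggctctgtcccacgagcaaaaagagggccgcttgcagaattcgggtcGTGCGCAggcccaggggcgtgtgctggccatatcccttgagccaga
Klf15: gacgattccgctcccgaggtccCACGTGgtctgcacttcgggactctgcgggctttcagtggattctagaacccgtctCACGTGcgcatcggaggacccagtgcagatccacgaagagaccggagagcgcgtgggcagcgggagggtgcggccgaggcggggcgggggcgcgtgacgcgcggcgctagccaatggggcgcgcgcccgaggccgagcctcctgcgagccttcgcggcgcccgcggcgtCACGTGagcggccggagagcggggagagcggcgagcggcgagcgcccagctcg
Both strands were searched, so that a metal response element can be printed as its complement, as at GTGTGCA in Mt2. The palindrome contains its own arm, AGAACA, which was also searched alone and was in windows of Sgk1 and Tsc22d3 and in 19% of all windows. The inner part of the palindrome, ACANNNTGT, was in windows of Sgk1 and Mt1 and in 6.85% of all windows. None of these elements was in the Klf9 window. A match is a stretch of letters and no measured binding site, and an element outside these windows would not be seen.

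Nr3c1, the receptor, had similar levels in the 3 kinds of heart. Its brightest probe set (1421867_at) read 10.79, 10.61, 11.03, 10.92 and 11.09 in B6C3F1 hearts, 11.06, 11.25, 10.81, 10.60 and 11.13 in C3H hearts, and 11.08, 11.14, 11.14, 10.98 and 11.06 in C57Bl/6 hearts. The groups overlapped, and the C57Bl/6 hearts lay closest together. The difference was -0.11 for C3H minus C57Bl/6 (95% interval -0.36 to 0.14, limma adjusted p = 0.589), -0.19 for B6C3F1 minus C57Bl/6 (-0.44 to 0.05, adjusted p = 0.371) and -0.08 for B6C3F1 minus C3H (-0.33 to 0.16, adjusted p = 0.76). Differences below -0.44 or above 0.16 lay outside all 3 intervals. The other 4 probe sets of Nr3c1 above the limit also did not pass in any comparison. One of them, 1457635_s_at, read 9.38 to 9.81 in B6C3F1 hearts and 8.59 to 9.29 in C57Bl/6 hearts without overlap, a difference of 0.51 with an adjusted p of 0.0769 in the fit over every probe set. The brighter set gave -0.19 for the same comparison, so that probe sets of Nr3c1 went opposite ways.

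Fkbp5 encodes FKBP51, a co-chaperone that lowers the hormone affinity of the receptor and is itself induced by it. Its level was 8.76, 9.36, 8.84, 9.11 and 9.07 in B6C3F1 hearts, 10.12, 9.01, 9.58, 9.93 and 8.57 in C3H hearts, and 9.70, 9.47, 8.76, 9.10 and 8.56 in C57Bl/6 hearts. The groups overlapped, and the C3H hearts alone spanned from about the lowest to the highest value of the study. C3H minus C57Bl/6 was 0.32 (95% interval -0.21 to 0.85, adjusted p = 0.443), and B6C3F1 minus C3H was -0.42 (-0.95 to 0.12, adjusted p = 0.4). The dimmer probe set 1448231_at averaged 6.86 ± 0.19 in B6C3F1, 6.97 ± 0.94 in C3H and 6.06 ± 0.65 in C57Bl/6 (SD, n = 5). There C3H minus C57Bl/6 was 0.92 (adjusted p = 0.122 in the fit over every probe set) and B6C3F1 minus C57Bl/6 was 0.81 (adjusted p = 0.248), where the brighter set gave -0.09, so that the sets went opposite ways for B6C3F1 and none of these differences passed.

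Tsc22d3 encodes GILZ, a leucine zipper protein that carries part of the anti-inflammatory action of glucocorticoids. Its level was 10.20 to 10.75 in B6C3F1 hearts (median 10.69), 10.18 to 11.18 in C3H hearts (median 10.63) and 10.54 to 10.92 in C57Bl/6 hearts (median 10.72). In this brightest probe set (1420772_a_at) the C3H range enclosed the other groups, and the differences between strain means were at most 0.19 in size. B6C3F1 minus C3H was -0.35 in 1425281_a_at (adjusted p = 0.191 in the fit over every probe set) and 0.57 in 1444365_at (adjusted p = 0.319). Probe sets of Tsc22d3 thus went opposite ways, and none passed in any comparison. Sgk1, a kinase that raises the activity of ion channels and transporters, read 11.95, 11.86, 11.73, 11.75 and 12.20 in B6C3F1 hearts, 11.54, 11.96, 11.87, 11.59 and 11.89 in C3H hearts, and 11.80, 11.94, 12.23, 11.85 and 12.40 in C57Bl/6 hearts. All groups overlapped, although the 2 highest C57Bl/6 hearts exceeded every other array. Sgk1 was -0.28 for C3H minus C57Bl/6 (95% interval -0.54 to -0.01), with an adjusted p of 0.157. With the Gapdh 3 prime over 5 prime ratio of each array, a sign of RNA integrity, as a covariate, Sgk1, C3H minus C57Bl/6, became -0.45 with an adjusted p of 0.00639. That ratio was 0.90 ± 0.21 (log2, SD, n = 5) in B6C3F1, 0.60 ± 0.26 in C3H and 0.85 ± 0.24 in C57Bl/6.

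Zbtb16 encodes PLZF, a zinc finger repressor that is strongly induced by glucocorticoids in many cell types, and it varied most of the 10 genes. It read 7.80, 9.97, 8.23, 8.98 and 9.33 in B6C3F1 hearts, 10.61, 8.57, 10.64, 11.55 and 8.65 in C3H hearts, and 10.15, 9.41, 9.22, 10.32 and 8.46 in C57Bl/6 hearts. These values are of its brightest probe set, 1439163_at. In C3H, 3 hearts read 10.61 or more and 2 read 8.65 or less, with nothing between, and the groups overlapped. B6C3F1 minus C3H was -1.14 with a 95% interval of -2.21 to -0.07, and it did not pass over all genes (adjusted p = 0.22). With the Gapdh ratio as a covariate, Zbtb16, B6C3F1 minus C3H, was -1.80 and passed (adjusted p = 0.0426), the one of 29 alternatives in which it did. C3H minus C57Bl/6 was 0.49 (-0.57 to 1.56, adjusted p = 0.576). In 1419874_x_at the C3H hearts read 9.07, 8.36, 9.98, 9.93 and 8.33, with the same mice high. In 1427638_at they read 7.23, 7.24, 7.85, 8.39 and 7.24, without that split. B6C3F1 minus C3H was -0.90 in 1419874_x_at (adjusted p = 0.0955 in the fit over every probe set) and -0.22 in 1427638_at (adjusted p = 0.774).

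Cdkn1a encodes p21, an inhibitor of cyclin-dependent kinases that both p53 and the glucocorticoid receptor can induce. It read 10.92, 11.42, 11.28, 10.68 and 11.62 in B6C3F1 hearts, 10.82, 10.51, 10.51, 10.95 and 11.20 in C3H hearts, and 10.87, 11.55, 11.48, 9.61 and 10.90 in C57Bl/6 hearts. The lowest array of all was a C57Bl/6 heart at 9.61, and the groups overlapped. The differences were -0.09 for C3H minus C57Bl/6 (adjusted p = 0.881), 0.30 for B6C3F1 minus C57Bl/6 (adjusted p = 0.567) and 0.39 for B6C3F1 minus C3H (adjusted p = 0.478). The second probe set (1421679_a_at) did not overlap between B6C3F1 hearts (9.15 to 10.60) and C3H hearts (8.65 to 9.12), but the difference of 0.63 had an adjusted p of 0.233.

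The metallothioneins Mt1 and Mt2 are small cysteine-rich proteins that bind zinc and copper and are induced by metals and by glucocorticoids. Mt1 read 13.63, 14.10, 13.60, 13.77 and 13.59 in B6C3F1 hearts, 14.01, 13.08, 13.98, 14.53 and 13.58 in C3H hearts, and 13.34, 14.01, 13.33, 13.24 and 13.30 in C57Bl/6 hearts. In C57Bl/6, 4 hearts lay between 13.24 and 13.34, below every B6C3F1 heart, and 1 heart (replicate 2) stood apart at 14.01. C3H minus C57Bl/6 was 0.40 (95% interval -0.02 to 0.81, adjusted p = 0.209). Mt1, C3H minus C57Bl/6, was 0.54 without C57Bl/6 replicate 2 (adjusted p = 0.0682), and it passed without C3H replicate 2, at 0.59 (adjusted p = 0.0298), and with the Gapdh ratio as a covariate, at 0.60 (adjusted p = 0.0449). Mt2 read 10.41, 11.04, 10.26, 10.66 and 11.78 in B6C3F1 hearts, 11.99, 10.24, 11.65, 11.66 and 10.76 in C3H hearts, and 10.78, 11.34, 10.64, 10.90 and 10.67 in C57Bl/6 hearts. The C3H hearts with 11.65 or more were the same 3 mice that were high for Zbtb16 in its brightest probe set, and the groups overlapped. C3H minus C57Bl/6 was 0.39 for Mt2 (-0.22 to 1.00, adjusted p = 0.414). The bright Mt1 probe set (1422557_s_at) is of a design that can match several transcripts, so that transcripts of another gene cannot be told apart from those of Mt1 in it.

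Klf15 is a Krüppel-like factor that glucocorticoids and the clock both induce, and that controls amino acid and lipid use in heart muscle. It read 10.59, 11.37, 10.60, 11.19 and 10.66 in B6C3F1 hearts, 10.72, 11.03, 12.09, 11.85 and 10.98 in C3H hearts, and 11.73, 11.10, 10.65, 11.50 and 11.01 in C57Bl/6 hearts. The groups overlapped throughout. B6C3F1 minus C3H was -0.46 (95% interval -0.97 to 0.06, adjusted p = 0.324), B6C3F1 minus C57Bl/6 was -0.32 (-0.83 to 0.19, adjusted p = 0.489) and C3H minus C57Bl/6 was 0.14 (-0.38 to 0.65, adjusted p = 0.773).

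**Figure D1:**
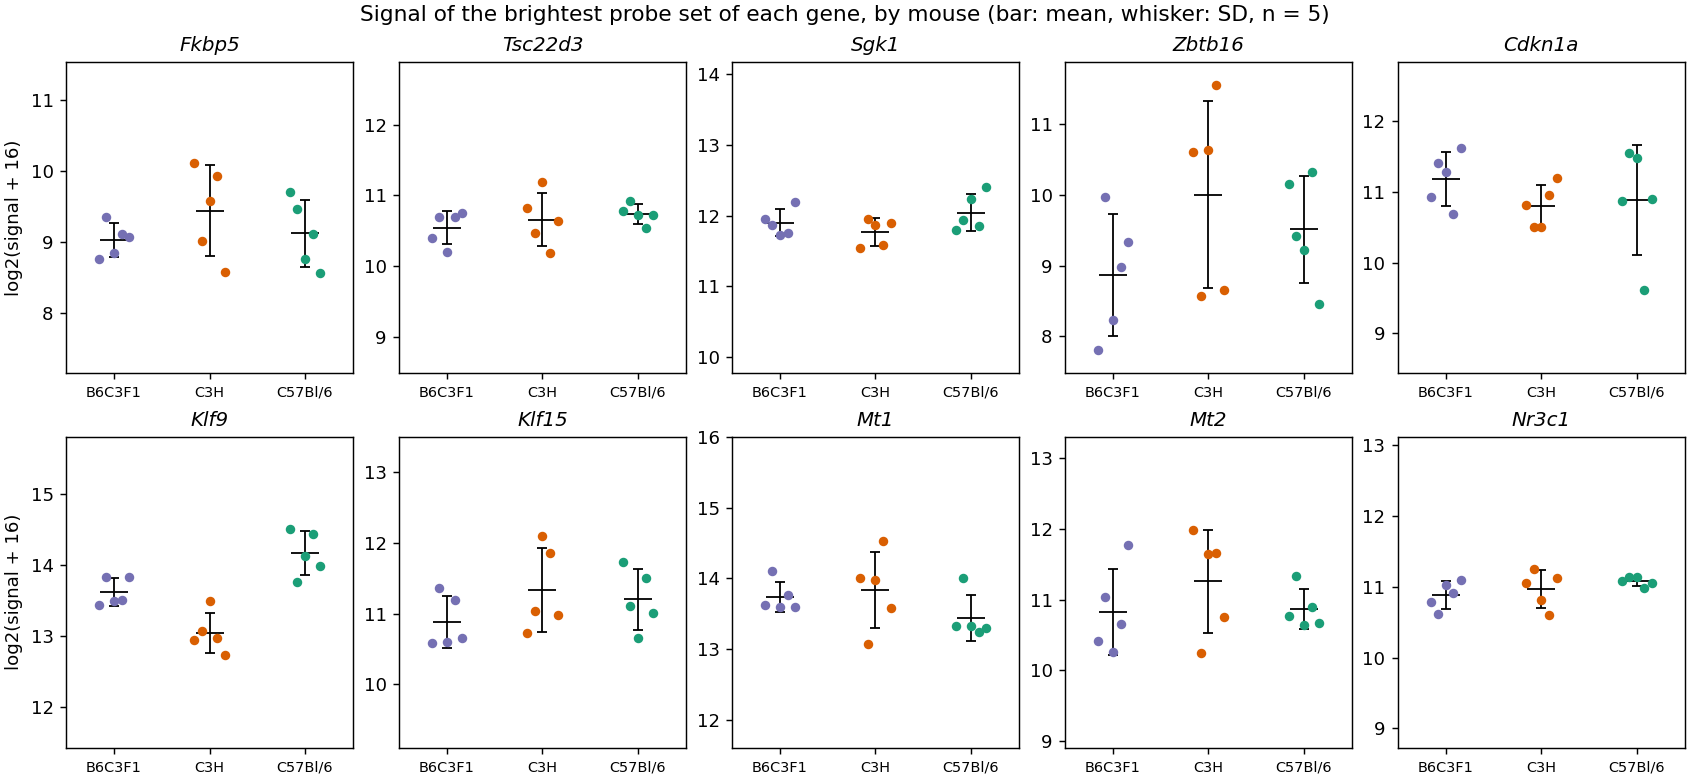
Signal of the brightest probe set of each of the 10 genes on a log2(signal + 16) axis, one point per mouse, with the groups B6C3F1, C3H and C57Bl/6 from left to right. Bars are means and whiskers SDs (n = 5), and every panel spans the same number of log2 units. The C3H and C57Bl/6 points of Klf9 lie apart, while every other panel overlaps, and Zbtb16 has the widest scatter.

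Klf9, a Krüppel-like repressor that responds to glucocorticoids and to thyroid hormone, was the one gene of the 10 that passed the test between the strains. It read 13.44, 13.83, 13.49, 13.50 and 13.83 in B6C3F1 hearts, 12.94, 13.07, 13.49, 12.97 and 12.72 in C3H hearts, and 14.51, 13.77, 14.13, 14.44 and 13.99 in C57Bl/6 hearts. Every C3H heart was below every C57Bl/6 heart, and the B6C3F1 hearts lay between, touching both parents. Klf9 averaged 13.62 ± 0.20 in B6C3F1, 13.04 ± 0.28 in C3H and 14.17 ± 0.31 in C57Bl/6 (SD, n = 5 each). C3H minus C57Bl/6 was -1.13 ± 0.15 (SE; 95% interval -1.43 to -0.82; limma adjusted p = 1.3e-05), a signal 2.18-fold lower in C3H. Of the 10 genes, 1 passed in this comparison, beside 15.7% of all genes tested. Without overlap there was likewise 1 of the 10, beside 11.2% of all genes. These shares are close to the background, so that the set does not stand out from the array. The median difference of the 10 genes was 0.03, and that of all genes was -0.02.

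In the hybrid Klf9 differed from each parent. B6C3F1 minus C57Bl/6 was -0.54 ± 0.15 (SE, adjusted p = 0.0422), and again 1 of the 10 genes passed, beside 3.83% of all genes. B6C3F1 minus C3H was 0.58 ± 0.15 (SE, adjusted p = 0.0204), with 1 of the 10 genes, beside 6.2% of all genes. Neither hybrid comparison left any of the 10 genes without overlap, beside 6.16% and 6.4% of all genes. Against the midparent, which lies midway between the means of the parents, Klf9 was 0.02 (95% interval -0.25 to 0.28, adjusted p = 0.964). The limma fit called none of the 10 genes against the midparent, where 0.633% of all genes passed. None of the 10 had an unadjusted p under 0.05 there, beside 14.7% of all genes. The 4 comparisons share arrays and are not independent of each other. The median difference of the 10 genes was -0.17 for B6C3F1 minus C57Bl/6, -0.11 for B6C3F1 minus C3H and -0.15 for B6C3F1 minus midparent, against 0.01, 0.03 and 0.03 over all genes.

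**Figure D2:**
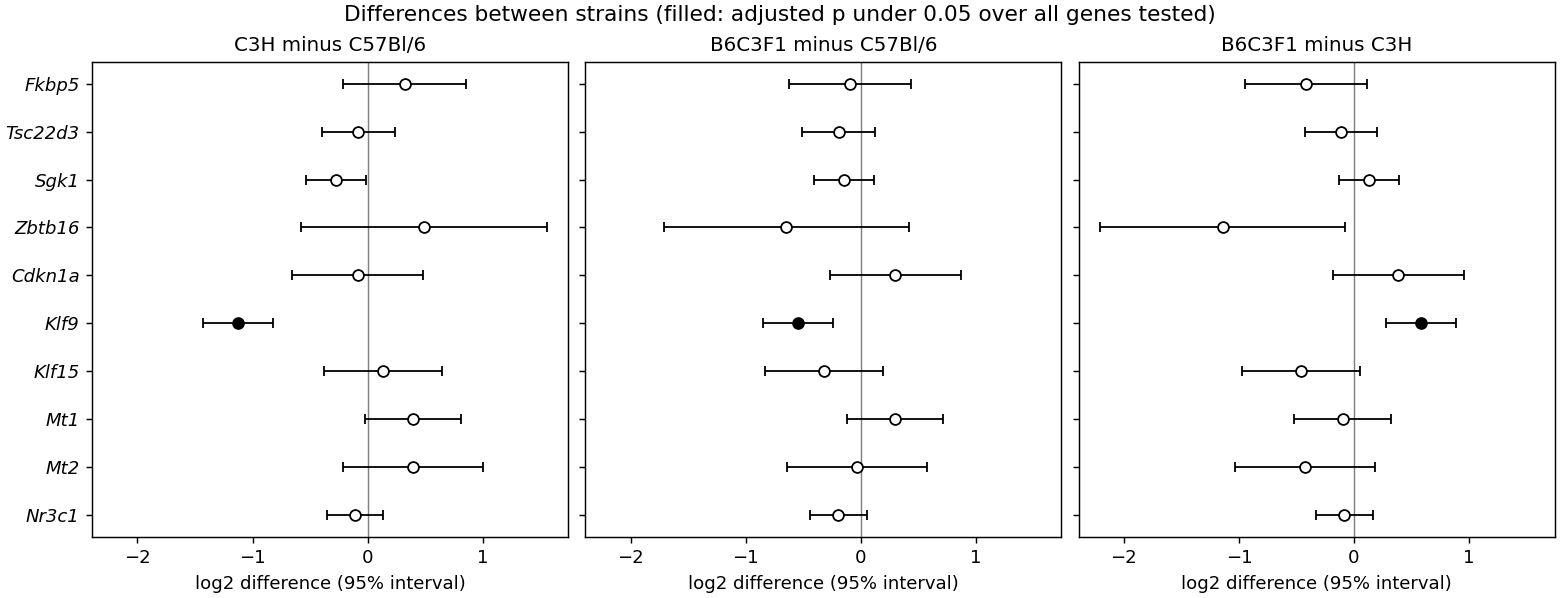
Differences between strains in log2(signal + 16) for the 10 genes with 95% intervals from the limma fit, for C3H minus C57Bl/6 (left), B6C3F1 minus C57Bl/6 (middle) and B6C3F1 minus C3H (right). Filled points have an adjusted p under 0.05 over all 13111 genes. Klf9 is the single filled gene in each panel, at -1.13, -0.54 and 0.58, and Zbtb16 has the widest interval.

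Klf9 passed in fewer alternative analyses in the hybrid than between the parents. Klf9, C3H minus C57Bl/6, passed in 28 of 29 alternatives, among them the removal of each array. The exception was the removal of probe sets that can match several transcripts. Klf9, B6C3F1 minus C57Bl/6, passed in 16 of 29, and its adjusted p ran from 0.0505 to 0.12 when B6C3F1 replicate 1, 2, 3 or 4, C3H replicate 2 or C57Bl/6 replicate 1, 3 or 4 was left out. Klf9, B6C3F1 minus C3H, passed in 22 of 29, and its adjusted p was 0.0505 to 0.0597 when B6C3F1 replicate 2 or 5 or C3H replicate 4 was left out. With every array shifted to a common median, the median C3H minus C57Bl/6 difference of all genes became 0.10, against -0.02 before. Klf9, C3H minus C57Bl/6, was then -0.998 (adjusted p = 2.88e-05), still below that median.

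The 7 probe sets of Klf9 did not give one answer. For C3H minus C57Bl/6, 3 of the 6 above the limit passed in the fit over every probe set, all lower in C3H, where 13.7% of 23048 probe sets passed. They were 1456341_a_at, the set described so far (-1.13, adjusted p = 1.2e-05), 1436763_a_at (-1.36, adjusted p = 9e-05) and 1428288_at (-0.68, adjusted p = 0.0065). The set 1436763_a_at read 8.75, 8.91, 8.43, 8.45 and 8.79 in B6C3F1 hearts, 7.70, 7.86, 8.15, 8.12 and 6.92 in C3H hearts, and 8.94, 8.76, 8.95, 9.58 and 9.33 in C57Bl/6 hearts. Here C3H was below both other groups without overlap, and B6C3F1 minus C3H was 0.92 (adjusted p = 0.0106). The set 1428288_at read 12.86 to 13.27 in B6C3F1 hearts (median 12.91), 12.23 to 13.29 in C3H hearts (median 12.72) and 13.09 to 13.72 in C57Bl/6 hearts (median 13.38), with overlap. The equally bright 1428289_at read 12.76, 13.38, 12.93, 13.14 and 13.20 in B6C3F1 hearts, 12.82, 13.003, 13.39, 13.05 and 12.89 in C3H hearts, and 13.53, 13.21, 13.12, 13.43 and 13.23 in C57Bl/6 hearts. It differed by only -0.27 between the parents (adjusted p = 0.159), and the groups overlapped.

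The dimmer sets 1422264_s_at (0.31, adjusted p = 0.436) and 1436952_at (-0.39, adjusted p = 0.606) did not pass, and the first had the opposite sign. Both sets with a difference of more than 1 carry the suffix _a_at, and whether they also match another gene was not checked. That suffix was grouped here with _s_at and _x_at as marking probes shared by several transcripts. When all such sets were left out, 1428289_at represented the gene, and Klf9, C3H minus C57Bl/6, was -0.27 (adjusted p = 0.148), with -0.22 for B6C3F1 minus C57Bl/6 (adjusted p = 0.319) and 0.05 for B6C3F1 minus C3H (adjusted p = 0.881). No probe sequence was used here, so that the stretch of the transcript each set reads is not given. Of the 26 probe sets of the 10 genes, 3 passed for C3H minus C57Bl/6, 1 for B6C3F1 minus C57Bl/6 (3.18% of all probe sets), 2 for B6C3F1 minus C3H (5.15%) and none against the midparent (0.573%), all of them of Klf9.

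**Figure D3:**
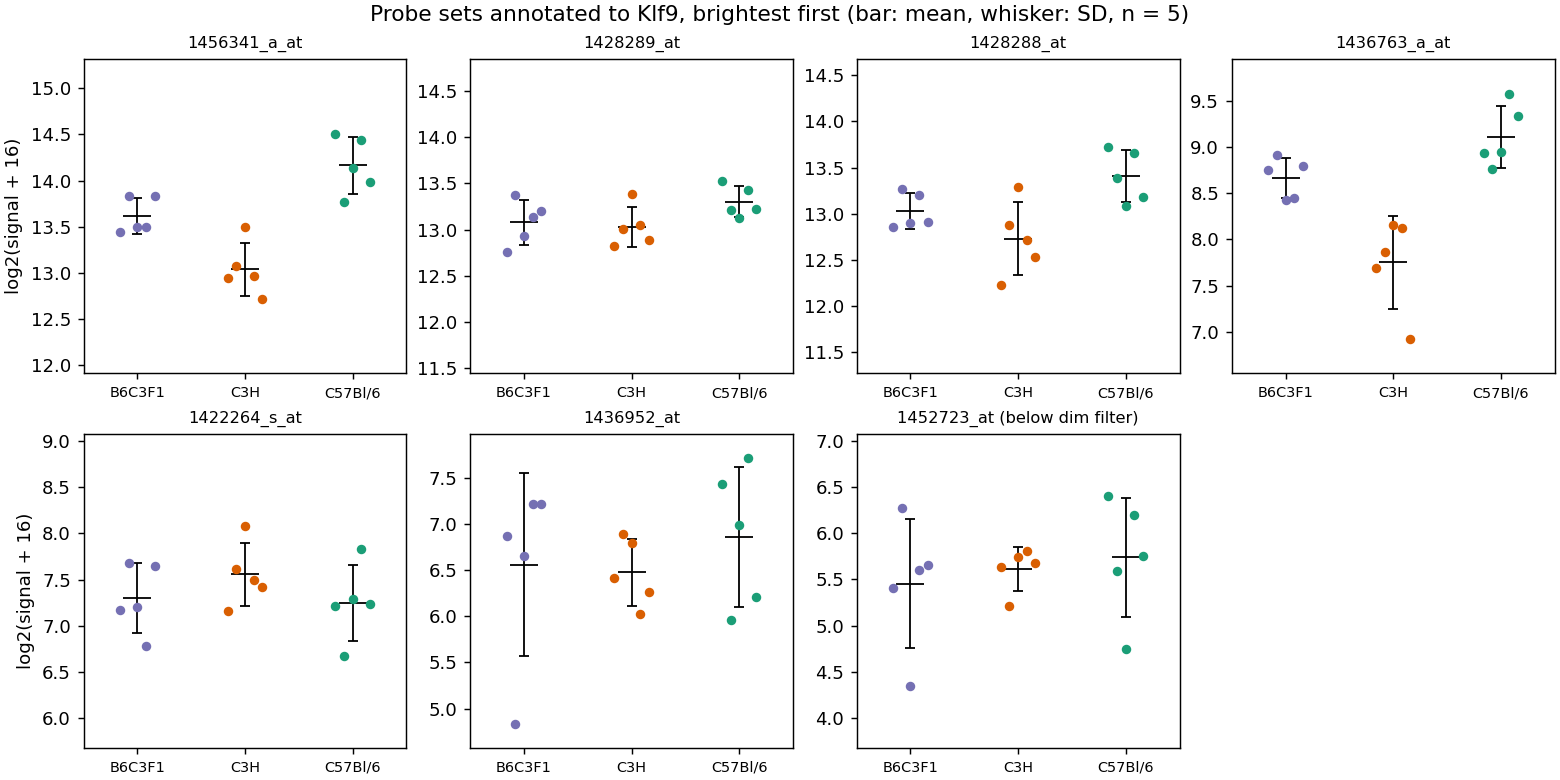
The 7 probe sets annotated to Klf9, from the highest mean to the lowest, as log2(signal + 16) with one point per mouse and B6C3F1, C3H and C57Bl/6 from left to right. Bars are means and whiskers SDs (n = 5). The sets 1456341_a_at and 1436763_a_at separate C3H from C57Bl/6, 1428288_at overlaps, and 1428289_at shows a difference of -0.27.

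Some markers of several cell types also differed between C3H, where Klf9 was low, and C57Bl/6. The counts below stand beside 15.7% of all genes tested that passed in this comparison. Each list is short, so that single markers do not show that a cell type differed. The summed signal of 6 fibroblast markers was 36490 to 41170 in B6C3F1, 37160 to 41730 in C3H and 27820 to 32190 in C57Bl/6, with 3 of the 6 higher and none lower in C3H than in C57Bl/6. That of 6 endothelial markers was 6281 to 10200 in B6C3F1, 4697 to 8404 in C3H and 7649 to 9829 in C57Bl/6, with 2 of the 6 lower and none higher in C3H. Macrophage markers, 6 of 6 above the limit, summed to 9664 to 11050 in B6C3F1, 5938 to 10290 in C3H and 6904 to 11080 in C57Bl/6, with 1 higher and 1 lower in C3H than in C57Bl/6. The 5 atrial markers on the array summed to 4888 to 15890 in B6C3F1, 6388 to 18530 in C3H and 4865 to 6753 in C57Bl/6. Of these, 3 were above the limit, and 1 was higher in C3H. One of 3 nerve and Schwann cell markers was higher, and 1 of 5 smooth muscle and pericyte markers and 1 of 2 red cell markers were lower in C3H. All 4 adipocyte markers on the array were dim, among them Adipoq, and so were the lymphocyte markers Cd3e, Cd3g and Cd4. Poly-A control RNAs, added during labelling, averaged 10.33 ± 0.13 (log2, SD, n = 5) in B6C3F1, 11.05 ± 0.80 in C3H and 10.26 ± 0.57 in C57Bl/6. The part of the cell type markers in the Klf9 difference was not tested. With the poly-A signal as a covariate, Klf9, C3H minus C57Bl/6, was -1.15 (adjusted p = 0.000199), while Klf9, B6C3F1 minus C3H, was 0.60 and no longer passed (adjusted p = 0.0707).

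The wider receptor pathway held a few strain differences. Of 19 genes for the receptors, their chaperones and coregulators and the enzymes that activate or inactivate the hormone, 15 could be tested. Nr3c1 and Fkbp5, described above, are among these 15. For C3H minus C57Bl/6, 4 were lower and none higher (26.7%, beside 15.7% of all genes). One of the 4, Hsd11b2, the enzyme that inactivates corticosterone, averaged 5.69 ± 1.05 in B6C3F1, 5.17 ± 0.35 in C3H and 6.59 ± 0.38 in C57Bl/6 (SD, n = 5). Its means in B6C3F1 and C3H lay under the dim limit, so that it was tested only through its level in C57Bl/6. Its difference (-1.42, adjusted p = 0.0266) is therefore given as a description, and it did not pass in 8 of 28 alternatives. The count of 4 and the 26.7% include this gene and are likewise only a description. Fkbp4, the co-chaperone FKBP52 that favours hormone binding, was -0.58 (adjusted p = 0.00144), and its sign turned when probe sets shared by several transcripts were left out. The coactivator Crebbp was -0.27 (adjusted p = 0.0405) and the chaperone partner St13 was -0.26 (adjusted p = 0.0477), both close to the threshold. Hsd11b1, the enzyme that regenerates active hormone, was 0.35 (adjusted p = 0.16), and the mineralocorticoid receptor Nr3c2, which also binds corticosterone, was 0.41 (adjusted p = 0.103). The median of the 15 was -0.11, the value of Nr3c1 itself. None of the 15 passed in the limma fit for B6C3F1 against C57Bl/6, C3H or the midparent, beside 3.83%, 6.2% and 0.633% of all genes. An unadjusted p under 0.05 was found for 2 genes against C57Bl/6, 4 against C3H and 0 against the midparent. The shares of all genes with such a p were 20.3%, 19.7% and 14.7%.

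Among 29 other genes known as glucocorticoid targets, all tested, 5 were lower and 1 higher for C3H minus C57Bl/6 (20.7%, beside 15.7% of all genes), with a median of -0.17. Ddit4 (REDD1), which restrains the growth kinase mTORC1, averaged 9.49 ± 0.39 in B6C3F1, 8.48 ± 0.24 in C3H and 10.10 ± 0.47 in C57Bl/6 (SD, n = 5), and C3H minus C57Bl/6 was -1.63 (adjusted p = 9.49e-06). Pdk4, which turns the heart from glucose to fatty acids, averaged 13.58 ± 0.21 in B6C3F1, 12.05 ± 0.62 in C3H and 13.41 ± 0.50 in C57Bl/6, a difference of -1.36 (adjusted p = 0.000522). In both genes every C3H heart was below every C57Bl/6 heart. Angptl4, an inhibitor of lipoprotein lipase, was -1.001 (adjusted p = 0.00513), Errfi1, a feedback inhibitor of the EGF receptor, was -0.66 (adjusted p = 0.0107), and Nfkbia, the inhibitor of NF-kappa-B, was -0.37 (adjusted p = 0.00918). Anxa1, annexin A1, was the one that was higher, at 0.37 (adjusted p = 0.00962).

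The same 29 genes gave 5 higher and 1 lower for B6C3F1 minus C3H (20.7%, beside 6.2% of all genes), with a median of 0.03. They were Pdk4 (1.54, adjusted p = 0.000519), Angptl4 (1.30, adjusted p = 0.00169), Ddit4 (1.01, adjusted p = 0.00439), Lpin1 (0.40, adjusted p = 0.012), a phosphatase of lipid synthesis, and Trim63 (0.37, adjusted p = 0.0339), the muscle ubiquitin ligase MuRF1, on the higher side. Rgs2, which dampens G protein signalling, was -1.03 (adjusted p = 0.0362). Rgs2 passed in 16 and Trim63 in 18 of 29 alternatives, and leaving out any single B6C3F1 array, or C3H replicate 1, 3 or 4, ended the call of Rgs2. For B6C3F1 minus C57Bl/6, 1 of the 29 passed (3.45%, beside 3.83% of all genes): Pik3r1, a regulatory subunit of PI3 kinase, at -0.87 (adjusted p = 0.0242). None of the 29 passed against the midparent in the limma fit, beside 0.633% of all genes. An unadjusted p under 0.05 was found for 9 of them, beside 14.7% of all genes. Several of these genes, Pdk4 and Angptl4 among them, are also targets of the fatty acid receptors PPAR.

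Genes downstream of the factors among the 10 were counted in the same way. Of 8 Klf15 targets, 2 were higher and 1 lower for C3H minus C57Bl/6 (37.5%, beside 15.7% of all genes). Bcat2, the mitochondrial enzyme that starts the breakdown of branched-chain amino acids, was 2.46 higher on the log2 scale (adjusted p = 1.5e-11), with 10.55 ± 0.07 in B6C3F1, 11.54 ± 0.29 in C3H and 9.08 ± 0.19 in C57Bl/6 (SD, n = 5). Bckdhb, a subunit of the next enzyme of that pathway, was 0.64 (adjusted p = 0.000124), while Pdk4 was lower as given above. Klf15 itself did not pass in these comparisons. Of 4 metal response genes that could be tested, out of 7, only the metal sensor Mtf1 passed for C3H minus C57Bl/6 (25%, beside 15.7% of all genes), at -0.41 (adjusted p = 0.0131), while Mt1 and Mt2 gave 0.40 and 0.39 and did not pass. Of 13 testable p53 targets, out of 17, 1 passed for C3H minus C57Bl/6 and 1 for B6C3F1 minus C3H (7.69% each, beside 15.7% and 6.2% of all genes). They were Aen, at -0.47 in the first (adjusted p = 0.0171), and Mdm2, the ubiquitin ligase of p53, at -0.41 in the second (adjusted p = 0.0128). Of 11 testable Krüppel-like factors besides Klf9 and Klf15, none passed for C3H minus C57Bl/6 in the limma fit, beside 15.7% of all genes. Of these 11, 3 had an unadjusted p under 0.05, beside 27.9% of all genes. Of 5 relatives of Tsc22d3 and Sgk1, 1 passed (20%, beside the same 15.7%), and this gene, Tsc22d1, was -0.30 for C3H minus C57Bl/6 (adjusted p = 0.0158), with the opposite sign once shared probe sets were left out.

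Of 16 clock genes, of which Per1 is also among the 29 glucocorticoid targets, 3 were higher and 2 lower for C3H minus C57Bl/6 (31.2%, beside 15.7% of all genes). Dbp, a clock output factor, was 2.10 higher (adjusted p = 0.00196), at 11.38 ± 0.63 in B6C3F1, 13.66 ± 0.42 in C3H and 11.56 ± 1.30 in C57Bl/6, and Arntl, a core activator of the clock, was -0.98 (adjusted p = 0.02). For B6C3F1 minus C3H 2 were higher and 6 lower (50%, beside 6.2% of all genes). For B6C3F1 minus C57Bl/6 none of the 16 passed in the limma fit, beside 3.83% of all genes. In that comparison 2 had an unadjusted p under 0.05, beside 20.3% of all genes. Per1, which is both a clock gene and a glucocorticoid target, was -0.62 for C3H minus C57Bl/6 (adjusted p = 0.235).

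Most of the 10 genes varied more from mouse to mouse within a strain than other genes of like brightness did. The within-strain SD of Zbtb16 was 1.01, larger than in 99.9% of 2062 genes whose mean lay within 0.5 of its own. The share of such genes with a smaller SD was 99.3% for Mt2 (SD 0.57), 98.9% for Cdkn1a (0.53), 98.1% for Klf15 (0.47), 97.8% for Fkbp5 (0.48) and 97.4% for Mt1 (0.38). It was 90% for Klf9 (0.27), 82.4% for Tsc22d3 (0.27), 72.7% for Sgk1 (0.22) and 55.3% for Nr3c1 (0.19). The receptor gene itself lay near the middle of genes of its brightness. The median SD of all genes was 0.26.

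To see whether they varied together, each value was taken as its deviation from its strain mean over the 15 mice, since 5 mice per strain are too few for a correlation of their own. Among the 45 pairs, none passed after Benjamini-Hochberg adjustment of the permutation p, by Pearson r or by Spearman rho. The smallest adjusted p was 0.0621 for r and 0.0783 for rho, and 12 pairs by r and 11 by rho had an unadjusted p under 0.05. Fkbp5 and Zbtb16 had the largest r, 0.83 (permutation p = 0.00138, adjusted p = 0.0621), with a rho of 0.78 (permutation p = 0.00495, adjusted p = 0.0783). Their r was 0.82 without the 2 mice farthest from the median of Fkbp5. Over 22 alternatives it ran from 0.45 to 0.86, with an adjusted permutation p of 0.013 to 0.426, and it passed in 3. In C3H the same 3 hearts were highest for both genes in their brightest probe sets.

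Zbtb16, Fkbp5, Mt1 and Mt2 correlated positively in each of their 6 pairs, with r from 0.66 to 0.83. Zbtb16 and Mt2 had r = 0.73 and rho = 0.71 (permutation p = 0.0124 and 0.0144, adjusted p = 0.113 and 0.129, r = 0.60 without 2 mice). Fkbp5 and Mt1 had r = 0.66 and rho = 0.80 (permutation p = 0.0434 and 0.00522, adjusted p = 0.163 and 0.0783, r = 0.69 without 2 mice). Klf15 went with Zbtb16 (r = 0.65, rho = 0.68, permutation p = 0.0345 and 0.0255, adjusted p = 0.155 and 0.147, r = 0.61 without 2 mice). It went with Klf9 by r alone (r = 0.61, rho = 0.50, permutation p = 0.0303 and 0.0905, adjusted p = 0.152 and 0.271), and that r was 0.36 without 2 mice, so that it rested on them. These values do not pass and are given as a description of the 15 mice.

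The r of Nr3c1 with the other genes had both signs, those largest in size were negative, and none of these pairs passed. It was positive with Sgk1 (0.32), Cdkn1a (0.18) and Tsc22d3 (0.09). With Fkbp5 it was -0.42, with Mt2 -0.30 and with Klf9 -0.26. Nr3c1 had r = -0.69 with Klf15 (rho = -0.66, permutation p = 0.0172 and 0.0262, adjusted p = 0.113 and 0.147, r = -0.73 without 2 mice). With Mt1 it had r = -0.69 as well (rho = -0.58, permutation p = 0.0175 and 0.0667, adjusted p = 0.113 and 0.215, r = -0.71 without 2 mice), and with Zbtb16 it had r = -0.65 (rho = -0.62, permutation p = 0.0427 and 0.0481, adjusted p = 0.163 and 0.18, r = -0.50 without 2 mice). Sgk1 also went against Fkbp5, with r = -0.68 and rho = -0.72 (permutation p = 0.0124 and 0.0143, adjusted p = 0.113 and 0.129, r = -0.68 without 2 mice). Over 22 alternatives, r of Nr3c1 ran from -0.75 to -0.50 with Klf15, from -0.84 to -0.33 with Mt1 and from -0.76 to -0.44 with Zbtb16. That of Sgk1 and Fkbp5 ran from -0.78 to -0.39. Cdkn1a and Tsc22d3 had no pair with an unadjusted p under 0.05 by r.

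**Figure D4:**
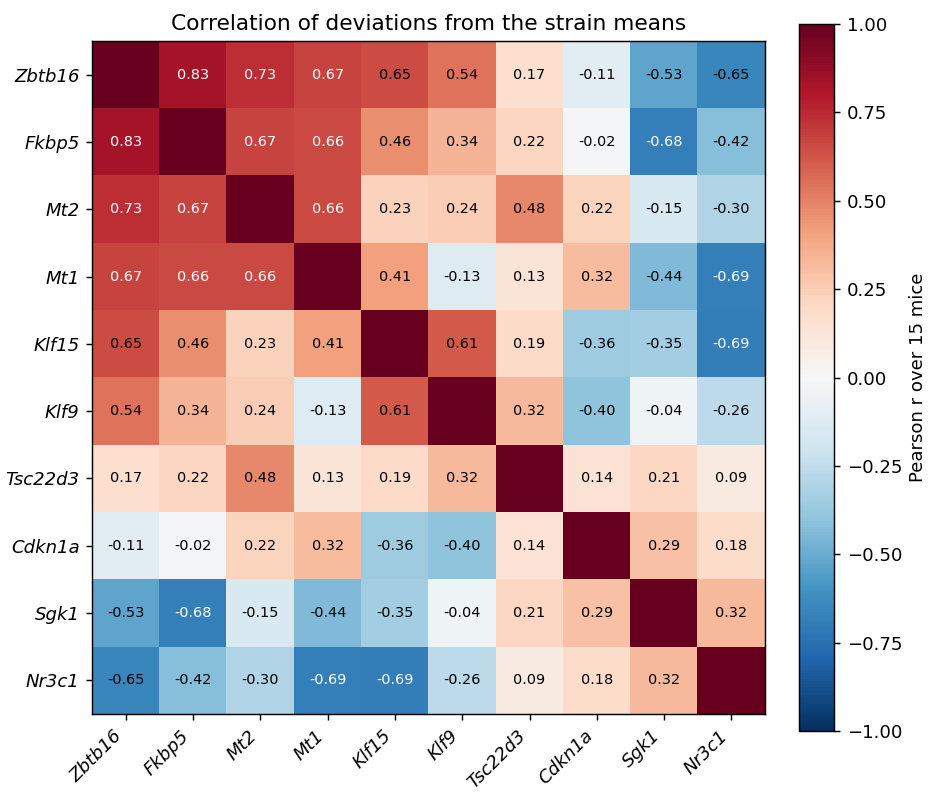
Pearson r over 15 mice between deviations from the strain means, for each pair of the 10 genes, in red where positive and blue where negative. Zbtb16, Fkbp5, Mt2 and Mt1 form a block of r from 0.66 to 0.83 at the upper left, and Nr3c1 and Sgk1 are mostly blue against them. No pair passed after adjustment over the 45 pairs.

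Quality measures of the arrays were set against the same deviations in 30 relations, and none passed. The nearest was Sgk1 against the Gapdh ratio, with r = -0.77 and rho = -0.67 (permutation p = 0.00172 and 0.0107, adjusted p = 0.0516 and 0.322, r = -0.70 without 2 mice). Zbtb16 went with the poly-A signal (r = 0.60, rho = 0.52, permutation p = 0.0191 and 0.0361, adjusted p = 0.231 and 0.361), with r = 0.31 without 2 mice. Against the Gapdh ratio, r was 0.47 for Fkbp5, 0.54 for Zbtb16, 0.51 for Mt1, 0.09 for Mt2 and -0.39 for Nr3c1. Against the poly-A signal, r was 0.50 for Fkbp5, 0.51 for Mt1, 0.25 for Mt2, -0.57 for Sgk1 and -0.43 for Nr3c1. The part of array quality in the pair correlations above was not tested. With the Gapdh ratio as a covariate no pair of the 10 genes passed. None passed without it, so that this count cannot show what array quality adds to the pairs.

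Relations with 3 clock genes and Hsd11b1 were added after the data were seen, 40 in all, of which 3 passed by r. Klf15 followed Per1, with r = 0.80 and rho = 0.81 (permutation p = 0.00056 and 0.00018, adjusted p = 0.0224 and 0.0072, r = 0.80 without 2 mice). Klf15 also went with Dbp by r (r = 0.67, permutation p = 0.00273, adjusted p = 0.0364) but not by rho (0.56, adjusted p = 0.128). Klf9 went against Arntl, with r = -0.81 (permutation p = 0.00232, adjusted p = 0.0364) and rho = -0.80 (permutation p = 0.00373, adjusted p = 0.0746), and r was -0.76 without 2 mice. None of the 10 genes passed with Hsd11b1, where the largest was Nr3c1 at r = -0.55 (permutation p = 0.107, adjusted p = 0.388).

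**Figure D5:**
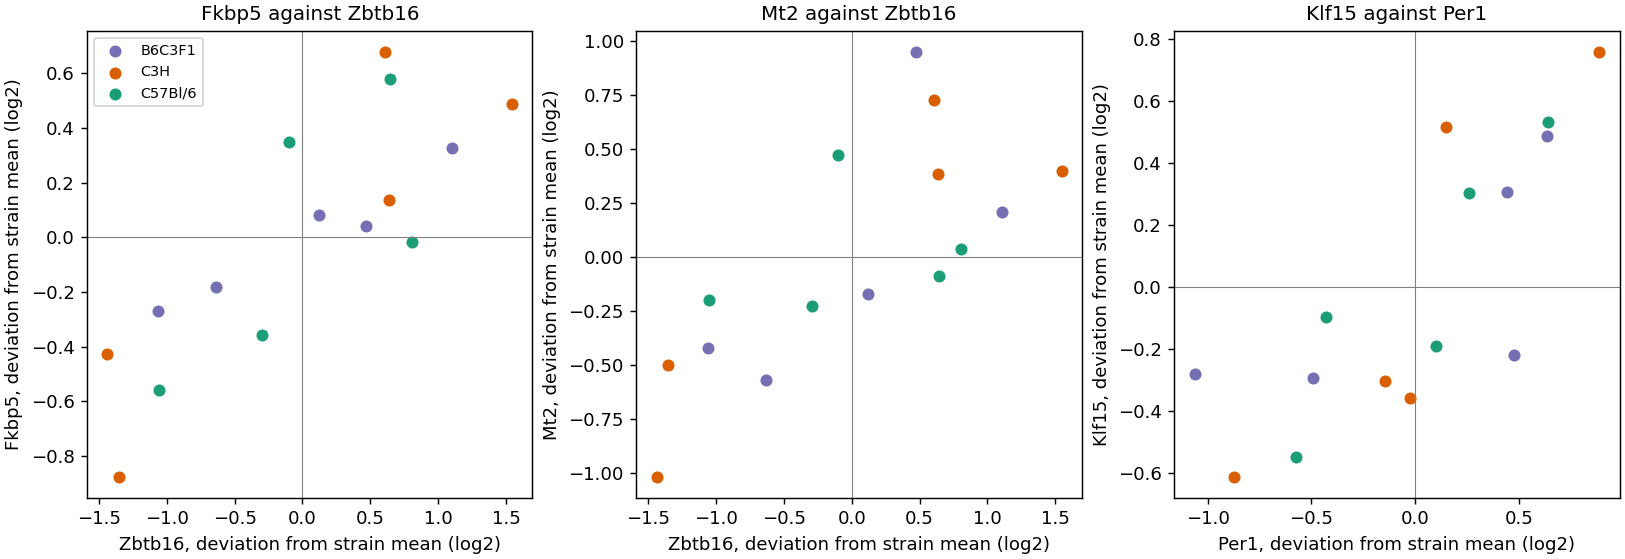
Deviations from the strain mean in log2 units, one point per mouse coloured by strain, for Fkbp5 against Zbtb16 (left, r = 0.83), Mt2 against Zbtb16 (middle, r = 0.73) and Klf15 against Per1 (right, r = 0.80). Over all 15 mice the points rise from left to right in each panel, with scatter.

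Over all 13110 other genes tested, the same deviations gave the nearest companions of Fkbp5, Mt1 and Klf15, listed here as a description. For Fkbp5 they were Furin (r = 0.90), Gnmt (0.89), Cdo1 (0.87), Phka1 (0.86) and Sv2a (0.86), and Zbtb16 ranked 14 of 13110. For Mt1 they were Hsbp1l1 (0.88), Zfp874b (0.84), Cyp4b1 (0.84), 4930526I15Rik (0.83) and Furin (0.82), while Mt2 ranked 126. For Klf15 they were its relative Klf13 (0.91), Zdhhc16 (0.89), 2310010J17Rik (0.87), Pim3 (0.87) and BC004004 (0.85). Furin, a protease that activates secreted precursors, was among the first 5 for both Fkbp5 and Mt1. No test is attached to these ranks, which are the extremes of 13110 values over the same 15 mice.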

How the data were processed

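Heart apex RNA of 15 male mice (5 arrays each of B6C3F1, C3H and C57Bl/6) was measured on Affymetrix arrays, with groups taken from the sample labels. The replicate numbers follow the order of the labelled mouse numbers within each strain. The deposited values are on a log2 scale, 1 per probe set, and the submitters' processing notes name MAS5, with no version. The log2 scale and the scaling are stated nowhere and were inferred from the numbers. No detection calls were used; arrays have no read depth, and their number sets the precision.

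Values were made linear, raised by 16 and put back on a log2 scale, which understates changes of dim genes. The brightest probe set stood for each gene, among 34940 probe sets with 1 symbol, and means under the 40th percentile (5.74) were left out. Probe sets with several symbols (932) or with none given (9160) were not used. All 10 symbols matched the gene table. Strains were compared with limma 3.58.1 in R 4.3.3 (lmFit, eBayes with an intensity trend) over all 15 arrays and 13111 genes with Benjamini-Hochberg adjustment, with the threshold at an adjusted p of 0.05. All adjusted p-values for strain differences are from this fit or, where said, from the same fit over 23048 probe sets. Correlations are of deviations from strain means, with two-sided permutation tests (100000 resamples within strains). Each array is labelled as a mouse of its own.

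The members and gene lists were chosen with earlier results of these data known. The named genes are all 10 members, up to 8 list genes that passed between the parents and up to 4 in each B6C3F1 against parent comparison, the 5 nearest genes of Fkbp5, Mt1 and Klf15, and always Dbp and Arntl. Per1, Hsd11b1 and Nr3c2 were named after their values were seen, as were the other genes given with values that did not pass.

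On simulated data with 13111 genes, for C3H minus C57Bl/6, the procedure recovered 31.3% of 1.5-fold, 79.1% of 2-fold and 97% of 4-fold changes and made 3 false calls. It made 11 false calls for B6C3F1 minus C57Bl/6, 5 for B6C3F1 minus C3H and 6 against the midparent. There it recovered 79.1%, 76.1% and 76.1% of 2-fold changes. Same-numbered arrays of different strains were compared, and their deviations correlated at -0.06 to 0.13, with 2 of 15 pairs over 0.1. The numbers are only an order within each strain, so that this check cannot show a pairing or a batch. Alternatives covered the pseudocount, dim filter, normalization, choice of probe set, variance model, arrays in the fit, replicate block, quality covariates, array weights and leaving out each array.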

Additional observations from a re-analysis of the deposited data

Results flagged for a closer look

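In 78 sets of 5 arrays (26 probe sets of the 10 genes in 3 strains), 1 array stood far from the other 4 in 5 sets, by a gap criterion that chance meets in about 1 of 20 sets. Mt1 (1422557_s_at, the set that represents the gene) read 14.01 in C57Bl/6 replicate 2, while the other 4 C57Bl/6 hearts read 13.24 to 13.34. Zbtb16 (1419874_x_at) read 7.63 in C57Bl/6 replicate 5, with the others at 8.63 to 8.79. Cdkn1a (1421679_a_at) read 10.60 in B6C3F1 replicate 5, with the others at 9.15 to 9.51. Tsc22d3 (1425557_x_at) read 8.29 in C3H replicate 5, with the others at 8.77 to 8.91. Klf9 (1436952_at) read 4.84 in B6C3F1 replicate 2, with the others at 6.65 to 7.21. Of these 5 probe sets, only that of Mt1 represents its gene in the comparisons.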

How the results depend on the processing

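The C3H minus C57Bl/6 comparison kept 1 called member in all settings but 3: 0 with probe sets open to several transcripts removed, 3 (Klf9, Sgk1 and Mt1) with the Gapdh ratio as a covariate, and 1 to 2 when single arrays were left out (2 without C3H replicate 2). For B6C3F1 minus C57Bl/6 the count was 0, in place of 1, with no dim filter, with each array centred on its median, without the several-transcript probe sets, with no intensity trend and with the replicate block, and 0 to 1 when single arrays were left out. For B6C3F1 minus C3H it was 0 with median centring, without the several-transcript sets, with no trend and with the poly-A covariate, 2 (Klf9 and Zbtb16) with the Gapdh covariate, and 0 to 1 when single arrays were left out. Against the midparent it was 0 in all 29 alternatives. The replicate block gave 0 calls in B6C3F1 minus C57Bl/6 and moved no other member count, and the numbers are only an order within each strain. Among the 45 pairs, 1 passed with the second brightest probe sets (Klf9 and Klf15), and 0 to 2 when single arrays were left out, with 2 without B6C3F1 replicate 5 (Fkbp5 and Zbtb16, Mt1 and Mt2) and 1 without C57Bl/6 replicate 2 or replicate 4.

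Without the several-transcript probe sets, Fkbp4, C3H minus C57Bl/6, turned to 0.084, and Tsc22d1, C3H minus C57Bl/6, turned to 0.67, each on another probe set; Mt1 then had no probe set above the dim limit and gives no value. Of the other named calls, those lost in more than 3 alternatives were St13 (passed in 8 of 29), Crebbp (15), Rgs2 (16), Trim63 (18), Pik3r1 (22), Arntl (23), Aen (25) and Hsd11b2 (20 of 28). Over all genes the calls ran from 1363 to 3148 for C3H minus C57Bl/6 (main 2052), 264 to 1314 for B6C3F1 minus C57Bl/6 (502), 405 to 1186 for B6C3F1 minus C3H (813) and 41 to 254 against the midparent (83). The extremes came from the poly-A covariate (1363 and 405), every probe set (3148 and 1186), leaving out C57Bl/6 replicate 3 (264), array weights (1314 and 254) and, at 41, both median centring and leaving out B6C3F1 replicate 3. Median centring turned the split of higher and lower calls to 1292 and 549 for C3H minus C57Bl/6 (951 and 1101 without it), 199 and 79 for B6C3F1 minus C57Bl/6 (270 and 232) and 230 and 381 for B6C3F1 minus C3H (470 and 343). The cause of these changes was not tested. The brightness of dim sets limits what can be seen in them.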
